A study of Mus musculus with 24 samples.

Results

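The 32 genes described here mark immune cells in mouse islets, and were taken by gene symbol from a table of 28059 genes. They comprise 8 genes shared by several kinds of leukocytes, 12 genes of macrophages and monocytes, 4 genes of class II antigen presentation, 4 T cell genes, 3 B cell genes and 1 NK cell gene. The 8 are called pan-leukocyte genes below, though not each is used by every leukocyte: Spi1, for example, belongs to myeloid and B cells. The C1q complement chains were left out of the list. Of the 32 markers, 22 reached 1 RPKM in at least 4 libraries and were tested, out of 14342 genes tested in all. The 10 that did not are Mrc1, Cx3cr1, Ccr2, Cd3e, Cd3d, Cd4, Cd8a, Cd79b, Ms4a1 and Nkg7, and these are given by level alone. RPKM is the number of reads of a gene scaled to its length and to the reads of the library.

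RNA sequencing was done on islets of mice aged 3 to 4 months and of mixed background, and the islets were cultured and then picked by hand. The libraries form 2 sets by sample number. In set 1, 4 libraries carried Pdx1.CreERT2 with floxed Cop1, Etv1 and Etv5 (fl/fl each) and Etv4ko/ko (Cop1 Etv1/4/5 deletion), 3 carried Cop1 fl/fl and Pdx1.CreERT2 (Cop1 deletion) and 3 were controls with Cop1 fl/fl and no Cre. In set 2, 4 libraries carried Cop1fl/fl, Etv4ko/+, Etv5fl/fl and Pdx1.CreERT2 (Cop1 Etv4/5 deletion), 4 were Cop1 deletion and 4 were controls of the same genotypes as in set 1. Every group thus carries floxed Cop1. The Etv4 alleles are labelled ko and not floxed, and 1 Etv4 allele of the set 2 Etv libraries is labelled wild type. Pdx1.CreERT2 places a tamoxifen-dependent Cre under the promoter of Pdx1, a transcription factor of β cells. Deletion of the floxed genes is thus aimed at islet endocrine cells and not at leukocytes. This does not hold for the Etv4 ko alleles, which are not tied to Cre and would be present in leukocytes as well. COP1 is a ubiquitin ligase, and ETV1, ETV4 and ETV5 are ETS transcription factors that it marks for degradation. The groups allow islets without Cop1 to be set against controls, and those that also lack Etv genes against those without Cop1 alone.

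Healthy mouse islets hold a small population of resident macrophages that present antigen on class II molecules, while B cells and T cells are scarce there. CD45 (Ptprc) is on the surface of all leukocytes, CSF1R is the growth factor receptor that macrophages live on, and CD79A and CD79B carry the signal of the B cell receptor. Class II molecules are pairs of an α and a β chain, encoded by H2-Aa with H2-Ab1 and by an α partner with H2-Eb1, and CD74 is the invariant chain that fills their groove until peptide is loaded. Handpicked islets can carry along exocrine tissue, vessels and lymphoid tissue of the pancreas, and bulk RNA reads all of it.

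The promoters of class II genes share short elements called the X box and the Y box, which are bound by RFX and NF-Y and through them recruit CIITA. They are shown because the class II genes moved together in these libraries. The 250 bases before the start of 2 of them follow, from RefSeq on build GRCm38.p6, at chr17:34287824-34288073 on the minus strand for H2-Aa and at chr17:34305617-34305866 on the plus strand for H2-Eb1. Capitals mark GCAACT, with which the X box of both begins, and ATTGG, the core of the Y box, searched on both strands.
H2-Aa: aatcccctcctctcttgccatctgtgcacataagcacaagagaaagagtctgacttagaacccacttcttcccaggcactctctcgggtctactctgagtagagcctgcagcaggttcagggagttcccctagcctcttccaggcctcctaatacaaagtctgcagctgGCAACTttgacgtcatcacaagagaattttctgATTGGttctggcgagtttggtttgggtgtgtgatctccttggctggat
H2-Eb1: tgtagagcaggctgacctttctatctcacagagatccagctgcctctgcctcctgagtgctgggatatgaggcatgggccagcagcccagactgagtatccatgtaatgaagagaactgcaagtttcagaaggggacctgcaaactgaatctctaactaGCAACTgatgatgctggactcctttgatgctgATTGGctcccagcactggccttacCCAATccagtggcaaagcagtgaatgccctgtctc
In H2-Aa, GCAACT began 81 bases and ATTGG 48 bases before the start, and in H2-Eb1 they began 91 and 59 bases before it. Of 32851 promoter windows of this length, 9.01% held GCAACT and 33.8% held ATTGG on either strand. GCAACT followed on the same strand by ATTGG after 14 to 34 bases, a spacing chosen after these 2 windows were read, stood in 67 of the 32851 windows (0.204%). A match of letters is a description and shows no binding.

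Libraries summed to 569486 to 664207 RPKM (set 1) or 524289 to 682560 RPKM (set 2). Depth, read from the smallest steps between low values, was 0.331 to 0.526 of the deepest library in set 1 and 0.758 to 1 in set 2. Cop1 was 0.719 to 1.04 RPKM in Cop1 Etv1/4/5 deletion, 0.984 to 1.13 in Cop1 deletion and 1.22 to 1.55 in control of set 1. It was 0.77 to 0.856 in Cop1 Etv4/5 deletion, 0.763 to 0.934 in Cop1 deletion and 1.43 to 1.87 in control of set 2. Esr1, part of which is in CreERT2, was 44.0 to 111 RPKM in every library labelled with Cre and 0.05 to 0.2 in the controls, except the library labelled set 1 control replicate 2, where it was 99.1, which goes against its label. Xist was at least 48.3 RPKM in all 4 set 2 controls and in Cop1 deletion replicates 1 and 4, and at most 0.0627 in Cop1 deletion replicates 2 and 3, which held Y-linked Ddx3y. Cop1 Etv4/5 deletion replicates 1 and 3 also held Ddx3y. The sum of 10 endocrine markers was 198456 to 284369 RPKM in Cop1 deletion and 199813 to 267761 in control of set 2, and the sum of the 8 pan-leukocyte genes was 20.8 to 135 RPKM in Cop1 deletion and 14.8 to 30.3 in control.

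The main pattern among the immune markers in set 2 lay in 2 libraries, Cop1 deletion replicates 2 and 3. For 26 of the 32 markers both of them were above every one of the other 10 libraries of set 2. Among the 22 tested markers this held for 18 (81.8%), and among all 14342 genes tested for 7.89%. Cop1 deletion replicates 1 and 4, with the same genotype label, were both within the range of the 8 Cop1 Etv4/5 deletion and control libraries for 24 of the 32 markers. For the other 8 markers (Cd68, Csf1r, Cx3cr1, Ccr2, Cd3e, Cd4, Cd79a and Cd79b) at least 1 of them was outside it. No share over all tested genes was taken for this range, so the 24 cannot be set beside one. In bulk RNA, more cells of a type and more RNA per cell cannot be told apart.

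**Figure D1:**
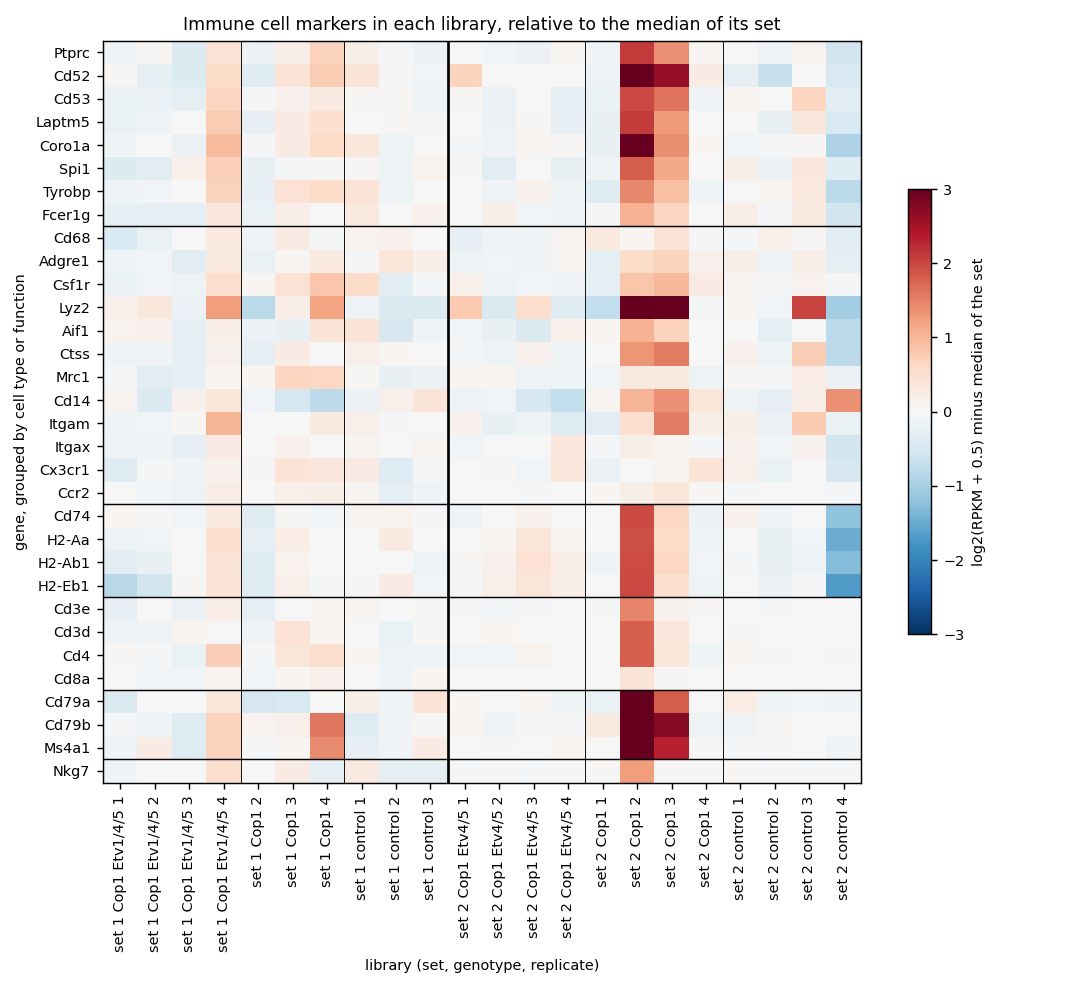
Heatmap of the 32 immune markers (rows, grouped by cell type or function) in 22 libraries (columns, set 1 left of the thick line, set 2 right). Colour gives log2(RPKM + 0.5) minus the median of the set, from 3 below (blue) to 3 above (red); set 2 Cop1 deletion replicates 2 and 3 are red for pan-leukocyte and B cell genes, and set 2 control replicate 4 is blue for class II genes and red for Cd14.

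All 8 pan-leukocyte genes were above the other 10 set 2 libraries in Cop1 deletion replicates 2 and 3, and higher in replicate 2 than in replicate 3. Ptprc was 0.621 to 0.83 RPKM in Cop1 Etv4/5 deletion, 0.678, 4.96, 2.77 and 0.841 in Cop1 deletion replicates 1 to 4, and 0.372 to 0.869 in control. Cd52, a small surface glycoprotein of lymphocytes and monocytes, was 2.58, 1.42, 1.41 and 1.46 RPKM in Cop1 Etv4/5 deletion, 1.24, 36.0, 11.6 and 1.79 in Cop1 deletion, and 1.08, 0.715, 1.47 and 0.903 in control. Coro1a, an actin regulator of leukocytes, was 2.23 to 2.6 RPKM in Cop1 Etv4/5 deletion, 2.0, 31.1, 7.13 and 2.54 in Cop1 deletion, and 2.27, 2.34, 2.5 and 1.05 in control. For each of the 3 genes, replicates 1 and 4 of Cop1 deletion lay within the range of the other 2 groups.

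Against the median of the other 10 set 2 libraries, Cop1 deletion replicate 2 was higher by 25.4-fold for Cd52, 13.2-fold for Coro1a and 6.8-fold for Ptprc. Cop1 deletion replicate 3 was higher by 8.21-fold, 3.04-fold and 3.8-fold for the same genes. Cd53, a tetraspanin, was 6.66 and 5.04 RPKM in these 2 libraries and at most 2.31 in the other 10. Laptm5, a lysosomal protein of blood cells, was 16.9 and 9.26 RPKM, against at most 4.6. Spi1, which encodes the transcription factor PU.1 of myeloid and B cells, was 5.78 and 3.42 RPKM, against at most 1.75. The gap was narrowest for the signalling adaptors Tyrobp and Fcer1g, at 3.01-fold and 2.21-fold in replicate 2 and 2.02-fold and 1.65-fold in replicate 3.

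Of the 12 macrophage and monocyte genes, 7 were above the other 10 libraries in both Cop1 deletion replicates 2 and 3, and 8 had their highest value of set 2 in replicate 3. Among all tested genes these shares were 7.89% and 11.3%. Lyz2, the lysozyme of macrophages and neutrophils, was 9.77, 3.94, 8.15 and 4.18 RPKM in Cop1 Etv4/5 deletion, 3.12, 61.5, 64.9 and 5.3 in Cop1 deletion, and 5.71, 5.17, 23.8 and 2.41 in control. Control replicate 3 was the next highest after the 2 deletion libraries. Against the median of the other 10 libraries, Lyz2 was 11.7-fold in Cop1 deletion replicate 2 and 12.4-fold in replicate 3, the highest ratio of the macrophage genes drawn in either library. Lyz2 has a near-identical neighbour, Lyz1, so its reads may be shared between the 2 genes.

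Csf1r was 1.82 to 2.33 RPKM in Cop1 Etv4/5 deletion, 1.6, 4.04, 4.51 and 2.52 in Cop1 deletion, and 1.95 to 2.25 in control. Adgre1, which encodes the macrophage surface protein F4/80, was 1.41 and 1.58 RPKM in Cop1 deletion replicates 2 and 3 and at most 0.996 in the other 10 libraries. Ctss, a protease that trims the invariant chain, was 45.5 and 53.4 RPKM in the same 2 libraries and at most 30.6 in the others. These 3 genes were 1.96- to 3.02-fold above the median of the other 10 libraries.

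Itgam, the α chain of the integrin CD11b, separated the 2 libraries. It was 1.23 RPKM in Cop1 deletion replicate 2 and 3.01 in replicate 3, and 0.43 to 1.6 in the other 10 libraries of set 2. Cd14, a receptor for bacterial lipopolysaccharide, was 4.83, 5.07, 3.76 and 3.02 RPKM in Cop1 Etv4/5 deletion, 5.79, 11.5, 14.8 and 7.09 in Cop1 deletion, and 4.89, 4.5, 6.31 and 14.8 in control. All 4 Cop1 deletion libraries were above all 4 Cop1 Etv4/5 deletion libraries for Cd14, while control replicate 4 was as high as the highest of them.

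Cd68, Itgax and Cx3cr1 did not follow the 2 libraries. Cd68, a lysosomal glycoprotein, was 32.2 to 41.0 RPKM in Cop1 Etv4/5 deletion, 47.3, 40.1, 52.3 and 37.6 in Cop1 deletion, and 30.2 to 42.7 in control. Itgax, the α chain of the integrin CD11c, was 0.794 to 1.25 RPKM in Cop1 Etv4/5 deletion, 0.83 to 1.05 in Cop1 deletion and 0.433 to 1.01 in control. Cx3cr1, the fractalkine receptor, was 0.247 to 0.505 RPKM in Cop1 Etv4/5 deletion, 0.199 to 0.544 in Cop1 deletion and 0.0682 to 0.383 in control. The groups overlapped for all 3 genes. Mrc1, which encodes the mannose receptor CD206, and Ccr2, a chemokine receptor of monocytes, were low but did follow them. Mrc1 was 0.325 and 0.329 RPKM in Cop1 deletion replicates 2 and 3 (83 and 82 reads) and 0.106 to 0.298 in the other 10 libraries. Ccr2 had 17 and 29 reads in the same 2 libraries and 1 to 7 in the others.

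The 4 class II genes moved together, at 3.89- to 4.19-fold over the median of the other 10 libraries in Cop1 deletion replicate 2 and at 1.47- to 1.63-fold in replicate 3. H2-Aa was 22.7, 24.1, 29.5 and 24.5 RPKM in Cop1 Etv4/5 deletion, 23.2, 88.3, 35.0 and 20.5 in Cop1 deletion, and 22.7, 19.5, 21.8 and 7.82 in control. Cd74 was 50.5, 55.0, 60.7 and 55.3 RPKM in Cop1 Etv4/5 deletion, 55.1, 217, 85.2 and 48.5 in Cop1 deletion, and 60.1, 49.9, 54.7 and 23.6 in control. H2-Ab1 and H2-Eb1 were 61.2 and 50.1 RPKM in Cop1 deletion replicate 2, against at most 20.9 and 15.8 in the libraries other than replicates 2 and 3. In control replicate 4 all 4 genes had their lowest value of the set, as did 18.1% of all tested genes, with H2-Ab1 at 5.92 and H2-Eb1 at 3.4 RPKM.

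Among markers with a median of at least 0.1 RPKM in the other 10 libraries, the ratios of the B cell genes Cd79b and Cd79a were the largest in Cop1 deletion replicate 2. In replicate 3 Cd79b had the largest, and Cd79a, at 12.3-fold, was next to Lyz2, at 12.4-fold. Cd79b was 0.112 to 0.183 RPKM in Cop1 Etv4/5 deletion, 0.302, 21.2, 3.88 and 0.0978 in Cop1 deletion, and 0.118 to 0.18 in control. Its steps correspond to 6 to 11 reads in the Cop1 Etv4/5 deletion libraries, to 18, 1221, 218 and 6 reads in the Cop1 deletion libraries and to 7 to 11 reads in the controls. Against the median of the other 10 libraries this is 142-fold in replicate 2 and 25.9-fold in replicate 3.

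Ms4a1, which encodes CD20, had 2 to 7 reads in Cop1 Etv4/5 deletion, 3, 850, 213 and 5 in Cop1 deletion, and 0 to 4 in control. Cd79a was 0.114 to 0.211 RPKM in Cop1 Etv4/5 deletion, 0.0909, 10.6, 1.9 and 0.191 in Cop1 deletion, and 0.126 to 0.288 in control. Each of the 3 genes had at most 19 reads in the other 10 libraries of set 2, and at least 118 in the same 2 that were high for pan-leukocyte genes. A count of 3 reads corresponds to 0.0294 RPKM for Ms4a1 and 0.0504 for Cd79b in set 2 control replicate 1.

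T cell and NK cell genes were mainly in Cop1 deletion replicate 2. Cd3e, a chain of the T cell receptor complex, had 0 to 1 reads in Cop1 Etv4/5 deletion, 0, 63, 4 and 2 in Cop1 deletion, and 0 to 1 in control. Cd3d, another chain of the same complex, had 0 to 1 reads in Cop1 Etv4/5 deletion, 0, 78, 8 and 0 in Cop1 deletion, and 0 to 1 in control. Cd4, the co-receptor of helper T cells that some macrophages also carry, had 8 to 19 reads in Cop1 Etv4/5 deletion, 15, 227, 38 and 6 in Cop1 deletion, and 10 to 17 in control. Cd8a, the co-receptor of cytotoxic T cells, had 24 reads in Cop1 deletion replicate 2 and at most 3 in each other library of set 2. Nkg7, a granule protein of NK cells and cytotoxic T cells, had 28 reads in replicate 2 and at most 1 elsewhere in the set.

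**Figure D2:**
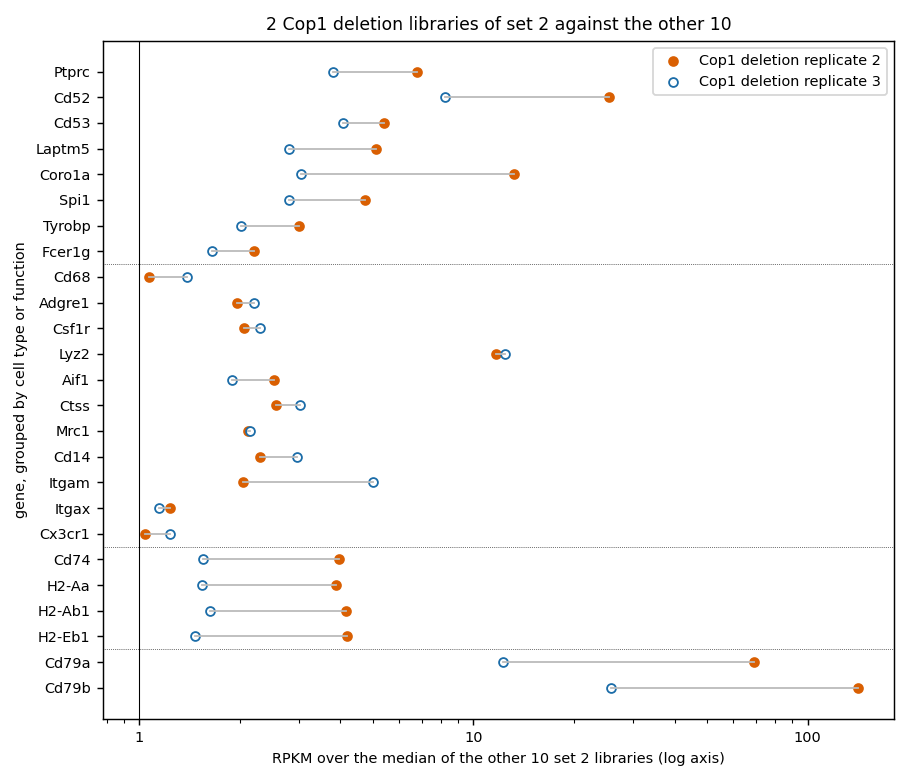
Level of 25 markers in set 2 Cop1 deletion replicate 2 (filled) and replicate 3 (open), divided by the median of the other 10 set 2 libraries (log axis); markers whose median was under 0.1 RPKM are not drawn. Filled points lie right of open ones for pan-leukocyte, class II and B cell genes, and Itgam stands the other way, at 2.04-fold and 5.01-fold.

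The ratio between the 2 libraries varied from marker to marker. Replicate 2 over replicate 3 was 15.4 for Cd3e, 5.47 for Cd79b, 4.36 for Coro1a and 2.52 for H2-Aa, and 0.895 for Csf1r, 0.852 for Ctss and 0.407 for Itgam. Each is 1 library, so these ratios have no replicate error.

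Loss of Cop1 was compared with control in set 2 by limma on log2(RPKM + 0.5). Of the 22 tested markers, 4 were higher in Cop1 deletion and 0 lower at an adjusted p under 0.05, where 9.09% of all tested genes were higher and 18.8% passed in either direction. Cd52 rose by 2.09 on the log2 scale (SE 0.63, adjusted p = 0.026, limma), H2-Ab1 by 1.03 (SE 0.34, adjusted p = 0.041), H2-Aa by 1.05 (SE 0.35, adjusted p = 0.044) and Aif1, a calcium-binding protein of macrophages, by 0.71 (SE 0.24, adjusted p = 0.048). Aif1 was 1.47, 3.4, 2.56 and 1.41 RPKM in Cop1 deletion and 1.4, 1.07, 1.39 and 0.602 in control, so that each Cop1 deletion library was above each control. Cd74 and H2-Eb1, of the same function as the called class II genes, had log2 fold changes of 0.91 (SE 0.33, adjusted p = 0.063) and 1.07 (SE 0.41, adjusted p = 0.071), which did not pass.

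The 22 log2 fold changes were all above 0 and their median was 0.73, beside a median of -0.02 over all tested genes. Of the 22, 12 had an unadjusted p under 0.05, a count given without a share over all genes and so not to be read as an excess. Without Cop1 deletion replicates 2 and 3, 21 markers were tested, 0 passed by limma, 0 had an unadjusted p under 0.05, and the median was 0.01, while 11.1% of all tested genes passed. Of the 14247 genes in that fit, 1824 were higher and 1727 lower at an unadjusted p under 0.05 by limma. Replicates 2 and 3 stood out by high levels of the same markers, so leaving them out must lower the fold changes. It also leaves Cop1 deletion replicates 1 and 4 alone, and is a description and not a test. The same holds wherever they are left out below. Itgam reached 1 RPKM in 4 libraries in all, replicates 2 and 3 among them, and was not tested without them. Cd52 then had a log2 fold change of 0.39 and H2-Aa of 0.38. The calls were also lost without replicate 2 alone, without replicate 3 alone, and without control replicate 2, and 14 markers passed when Cop1 deletion replicate 1 was left out. Without control replicate 4, in which class II genes were lowest, 2 markers passed, Cd14 and Cd52. Both replicates 2 and 3 also differed from all controls in Y-linked transcripts. In this comparison it could not be separated from the other differences. Cop1 Etv4/5 deletion replicates 1 and 3, which also held Ddx3y, had 219 and 164 reads of Ptprc and 11 and 8 of Cd79b. Cop1 deletion replicates 2 and 3 had 1351 and 736 reads of Ptprc and 1221 and 218 of Cd79b. The part of the Y-linked difference in the marker levels was not tested.

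**Figure D3:**
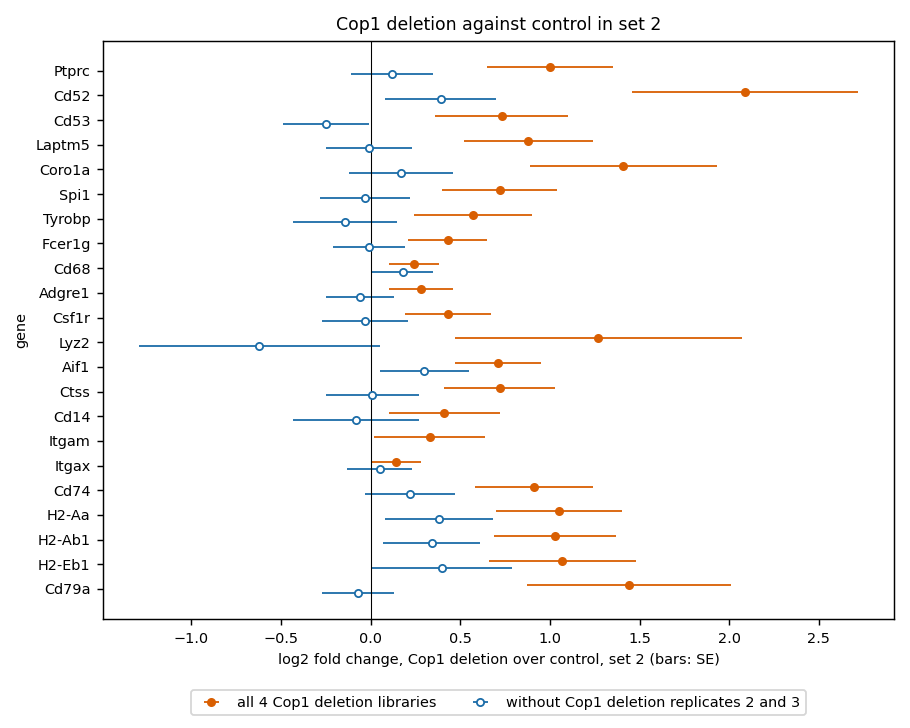
Log2 fold change of the tested immune markers in set 2, Cop1 deletion over control, with all 4 Cop1 deletion libraries (filled) and without replicates 2 and 3 (open); bars are SE from limma. With all libraries every value is above 0, and without the 2 libraries the values scatter around 0 with a median of 0.01.

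Cop1 Etv4/5 deletion, with Etv5 floxed and Etv4ko/+, was compared with Cop1 deletion in set 2. Of the 22 tested markers 0 passed by limma, and 1.73% of all tested genes did. At an unadjusted p under 0.05, 10 markers were lower in Cop1 Etv4/5 deletion and 0 higher. This count is given without a share over all genes and so is not to be read as an excess. The median log2 fold change was -0.61, beside 0.01 over all genes, and the smallest adjusted p was that of Cd14 (-1.07, SE 0.31, adjusted p = 0.083). Without Cop1 deletion replicates 2 and 3 the median of the markers was 0.05, 0 of 21 passed by limma, 0 had an unadjusted p under 0.05, and 0.309% of all tested genes passed. Of the 14247 genes in that fit, 934 were higher and 741 lower at an unadjusted p under 0.05 by limma. Cd14 passed when Cop1 deletion replicate 1, Cop1 deletion replicate 4 or control replicate 4 was left out, and Cd52, Cd79a and Ptprc passed with it without Cop1 deletion replicate 1.

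Against control, Cop1 Etv4/5 deletion left 0 of 22 tested markers past the threshold by limma and 1 with an unadjusted p under 0.05, while 8.74% of all tested genes passed. The median log2 fold change was 0.02. Class II genes were 0.31 to 0.64 higher on this scale without passing, and H2-Eb1 was 11.7 to 15.8 RPKM in Cop1 Etv4/5 deletion against 12.4, 10.7, 11.8 and 3.4 in control. These 2 comparisons share their libraries with the comparison of Cop1 deletion and control.

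**Figure D4:**
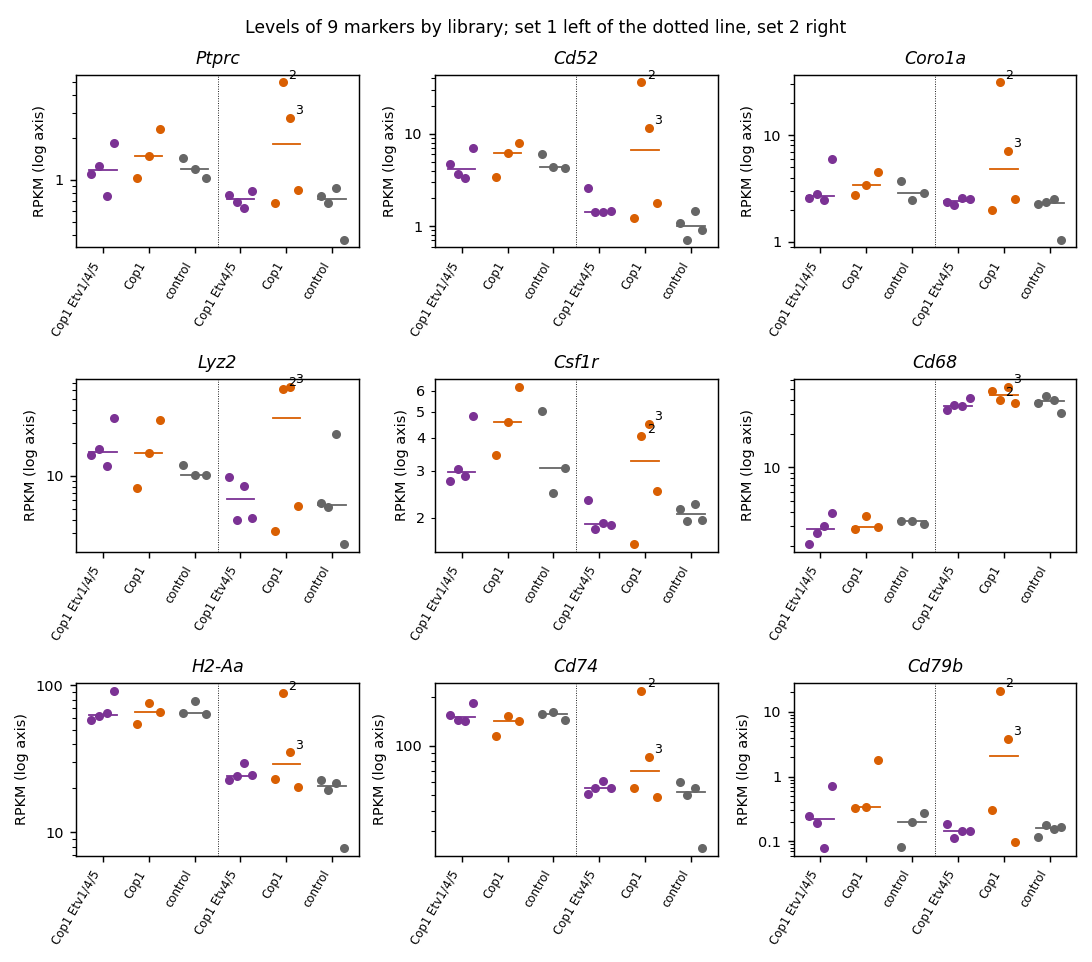
Levels of 9 markers in each library (RPKM, log axis), set 1 left and set 2 right of the dotted line, in the order Cop1 Etv deletion, Cop1 deletion and control; points are libraries, lines are group medians, and 2 and 3 mark set 2 Cop1 deletion replicates 2 and 3. In set 1 Cop1 deletion and control overlap for 8 of the 9 genes, Cd79b being the exception, and Cd68 is the gene for which the sets do not overlap.

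In set 1, no tested marker passed in any comparison. For Cop1 deletion against control 0 of 22 tested markers passed by limma, 0 had an unadjusted p under 0.05, the median log2 fold change was -0.03, and 8.33% of all tested genes passed. Leaving out any library of set 1, that labelled control replicate 2 among them, left the count at 0. Ptprc was 1.03, 1.47 and 2.29 RPKM in Cop1 deletion and 1.43, 1.19 and 1.03 in control. H2-Aa was 54.6, 75.4 and 66.0 RPKM in Cop1 deletion and 65.2, 78.2 and 64.1 in control. Csf1r was 3.43, 4.56 and 6.21 RPKM in Cop1 deletion and 5.02, 2.49 and 3.09 in control. The groups overlapped for all 3 genes. Cop1 deletion and control did not overlap for 2 of the 32 markers, Mrc1 and Cd79b, while they did not overlap for 29.9% of all tested genes. Mrc1, too low to be tested, was 0.332, 0.173, 0.195 and 0.392 RPKM in Cop1 Etv1/4/5 deletion, 0.387, 0.842 and 0.818 in Cop1 deletion (48, 99 and 91 reads), and 0.376, 0.234 and 0.258 in control (41, 36 and 25 reads).

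For Cop1 Etv1/4/5 deletion, 0 of 22 tested markers passed by limma against Cop1 deletion and 0 against control, with 0 at an unadjusted p under 0.05 in either. Of all tested genes, 6.34% passed against Cop1 deletion and 1.32% against control. The median log2 fold changes of the markers were -0.1 and -0.01. The set 1 difference between Cop1 deletion and control was lower than that of set 2 for all 22 tested markers, with a median of -0.74, but 0 passed the test of the difference by limma, 3 had an unadjusted p under 0.05, and 2.83% of all genes passed. Without set 2 Cop1 deletion replicates 2 and 3 that median was -0.07. Over the mean of both sets, 0 markers passed by limma, 3 had an unadjusted p under 0.05, and 20.1% of all tested genes passed. The shares of 2.83% and 20.1% are at the adjusted threshold and cannot be set beside the unadjusted counts of 3. Without set 2 Cop1 deletion replicate 1, Cd52, Csf1r and Ptprc passed in this mean.

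Cop1 Etv1/4/5 deletion replicate 4 was the highest of the 10 set 1 libraries for 18 of the 32 markers. Among tested markers this held for 14 of 22 (63.6%), and among all tested genes for 3.82%. Coro1a was 2.58, 2.8, 2.45 and 5.95 RPKM in Cop1 Etv1/4/5 deletion, 2.74, 3.43 and 4.46 in Cop1 deletion, and 3.73, 2.49 and 2.86 in control. Itgam was 0.293, 0.305, 0.373 and 1.22 RPKM in Cop1 Etv1/4/5 deletion, 0.339 to 0.531 in Cop1 deletion and 0.317 to 0.448 in control. Neutrophil transcripts, chosen here after their values were seen, were also high in the same library. It held S100a9 at 90.2, S100a8 at 48.8 and Ngp at 36.4 RPKM, while no other library of set 1 reached 1 RPKM of any of them. The part of neutrophils in its marker levels was not tested.

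Lymphocyte transcripts were also uneven in set 1. Cd79b was 0.0789 to 0.728 RPKM in Cop1 Etv1/4/5 deletion, 0.322, 0.34 and 1.79 in Cop1 deletion (9, 9 and 45 reads), and 0.0814, 0.202 and 0.275 in control (2, 7 and 6 reads). Cop1 deletion and control did not overlap, by a margin of 2 reads. Ms4a1 was highest in the same library, Cop1 deletion replicate 4, with 54 reads against 0 to 23 in the other 9 libraries. Cd79a did not go along: it was 0.888 to 1.86 RPKM in Cop1 Etv1/4/5 deletion, 0.808 to 1.4 in Cop1 deletion and 1.22 to 1.99 in control. Cd3e had 1 to 7 reads in every library of set 1.

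H2-Eb1 in set 1 was 21.6, 26.4, 40.3 and 52.4 RPKM in Cop1 Etv1/4/5 deletion, 29.9, 43.3 and 38.2 in Cop1 deletion, and 40.0, 46.3 and 36.6 in control. Its 2 lowest values were those of Cop1 Etv1/4/5 deletion replicates 1 and 2. In these 2 libraries H2-Aa, at 58.5 and 61.6 RPKM, was within the range of Cop1 deletion and control. They also had the lowest H2-K1 of set 1 (126 and 131 RPKM, against 152 to 192 in the other 8) and the highest H2-D1 (210 and 190 RPKM, against 133 to 159). H2-K1 and H2-D1, class I genes, were singled out after their values were seen. The mice are of mixed background, and the part of H2 alleles in these reads was not tested.

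The sets also differed in level. Cd68 was 30.2 to 52.3 RPKM in set 2 and 2.09 to 3.89 in set 1, with no overlap. It was the 1 marker of 32 for which the sets did not overlap, while 19% of all tested genes were higher in every library of set 2 and 10.6% in every library of set 1. Its median in set 2 was 12.7 times that in set 1, and of the other macrophage and monocyte genes Itgam (2.07 times) and Aif1 (1.18 times) also had the higher median in set 2. The remaining 9 had the higher median in set 1, among them Csf1r at 1.58 times and Adgre1 at 1.81 times that of set 2. Class II levels went the other way. Cd74 was 115 to 182 RPKM in set 1 and 23.6 to 60.7 in set 2 outside Cop1 deletion replicates 2 and 3, and its set 1 median was 2.7 times that of set 2. Tnf, a cytokine of activated macrophages chosen here after its values were seen, was 6.22 to 12.2 RPKM in set 1 and 0.0869 to 0.604 in set 2. The chemokine Ccl4, chosen in the same way, was 18.2 to 46.0 RPKM in set 1 and 0.0908 to 1.2 in set 2. Every genotype of a set shared these levels, and the labels do not say how the handling of the sets differed.

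Some companion genes also rose in set 2, where 9.09% of all tested genes were higher in Cop1 deletion than in control. Between Cop1 deletion and control in set 2, 2 of 18 tested macrophage genes outside the 32 rose and 0 fell: Cd83, an activation marker of antigen-presenting cells, by 0.99 (adjusted p = 0.032) and Ncf1, of the phagocyte oxidase, by 0.92 (adjusted p = 0.047), by limma. Of 4 other class II and dendritic cell genes tested, 2 rose and 0 fell. H2-DMa, which loads peptide on class II, rose by 0.87 (adjusted p = 0.025), with 3.06, 12, 3.47 and 3.55 RPKM in Cop1 deletion and 2.58, 1.97, 2.29 and 2.54 in control. Cd40, a costimulatory receptor, rose by 0.86 (adjusted p = 0.0007), with 4.65, 7.3, 6.49 and 4.91 RPKM in Cop1 deletion and 2.15, 3.35, 2.48 and 4.09 in control. For Cd40 and H2-DMa each Cop1 deletion library was above each control. Without replicates 2 and 3, 2 of the 4 genes of this list passed, both higher, but 0 of 17 macrophage genes tested rose and 1 fell, with a median log2 fold change of -0.14. In that fit 11.1% of all tested genes passed.

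The counts that follow are from the same comparison and stand beside the 9.09% of all tested genes that were higher. Of 3 other B and plasma cell genes tested, 1 rose and 0 fell: Mzb1, an endoplasmic reticulum protein of B and plasma cells, by 1.18 (adjusted p = 0.046). Of 5 T and NK genes tested, 1 rose and 0 fell: Ccl5, a chemokine, by 1.0 (adjusted p = 0.022). Without replicates 2 and 3, 1 B and plasma cell gene, which was not Mzb1, and 4 T and NK genes were still tested. Of these, 0 passed by limma, with 0 at an unadjusted p under 0.05. Mzb1 thus met the filter only through replicates 2 and 3, and its rise was not tested without them. Of 23 chemokines and cytokines tested, 1 rose and 0 fell: Il1b by 0.82 (SE 0.22, adjusted p = 0.013), at 5.72, 6.93, 4.41 and 6.84 RPKM in Cop1 deletion and 3.58, 3.32, 3.27 and 2.45 in control. Il1b did not follow replicates 2 and 3, and it also rose in Cop1 Etv4/5 deletion against control, by 0.83 (adjusted p = 0.02). Of 15 class I genes tested, 2 rose and 0 fell: H2-M3 by 0.29 (adjusted p = 0.021) and Pdia3 by 0.17 (adjusted p = 0.024). Without replicates 2 and 3, 1 of 22 chemokines and cytokines rose and 1 fell, and 1 of 15 class I genes rose and 1 fell. Of 2 neutrophil genes, 4 lymphoid stroma genes and 20 interferon response genes tested, 0 passed by limma, with 0, 2 and 0 higher and 0, 1 and 0 lower at an unadjusted p under 0.05.

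Lists of other genes told the 2 libraries apart, and the genes named in this paragraph were chosen after their values were seen. Of the 9 lymphoid stroma genes, 5 were above the other 10 libraries in replicate 2 and 3 in replicate 3. Of all tested genes, 25.1% and 16.1% were. Cop1 deletion replicate 2 had Glycam1 at 4.63, Madcam1 at 1.9 and Cxcl13 at 10.8 RPKM from this list, and Ccr7, from the class II and dendritic cell list, at 5.47. Replicate 3 had 0.0341, 0.51, 5.59 and 0.583, against at most 0.0659, 0.252, 0.443 and 0.598 in the other 10. Replicate 3 was highest of set 2 for 18 of the 20 interferon response genes, and for 11.3% of all tested genes. Among the 18 was Irf7 at 121 RPKM, beside 63.9 in replicate 2. Set 2 control replicate 4 had Irf7 at 84.7 RPKM and the other 9 libraries at most 28.1.

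Markers of other tissues differed between libraries as well. Both Cop1 deletion replicates 2 and 3 were above the other 10 set 2 libraries for 3 of 20 acinar, 1 of 10 duct, 1 of 10 endothelial and 2 of 10 stromal markers. This held for 7.89% of all tested genes. Counted singly, replicate 3 was above the other 10 for 17 acinar, 5 duct, 3 endothelial and 7 stromal markers. For replicate 2 the counts were 3, 4, 3 and 3. Of all tested genes, 16.1% were above in replicate 3 and 25.1% in replicate 2. The sum of 20 acinar markers was 11840 RPKM in Cop1 deletion replicate 2 and 26610 in replicate 3, and 955 to 13753 in the other 10 libraries, with the lowest value in control replicate 4. No acinar marker was at 0 in any library. Between Cop1 deletion and control in set 2, 0 of 20 acinar markers passed by limma, and the median log2 fold change was 1.46. At an unadjusted p under 0.05, 4 were higher, a count given without a share over all genes. Of 9 duct markers tested, 4 rose and 0 fell, beside 9.09% of all tested genes that rose. Krt7 was up by 1.32 (adjusted p = 8.5e-07, limma) and Epcam by 0.98 (adjusted p = 6e-09). The sum of 10 duct markers was 2897 to 4499 RPKM in Cop1 deletion and 1298 to 1766 in control. The 10 stromal markers summed to 18.2 to 171 RPKM in Cop1 deletion and 35.1 to 117 in control, and the 10 endothelial markers to 144 to 258 RPKM in Cop1 deletion and 159 to 252 in control. The part of acinar, duct or lymphoid tissue in the immune marker levels was not tested.

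**Figure D5:**
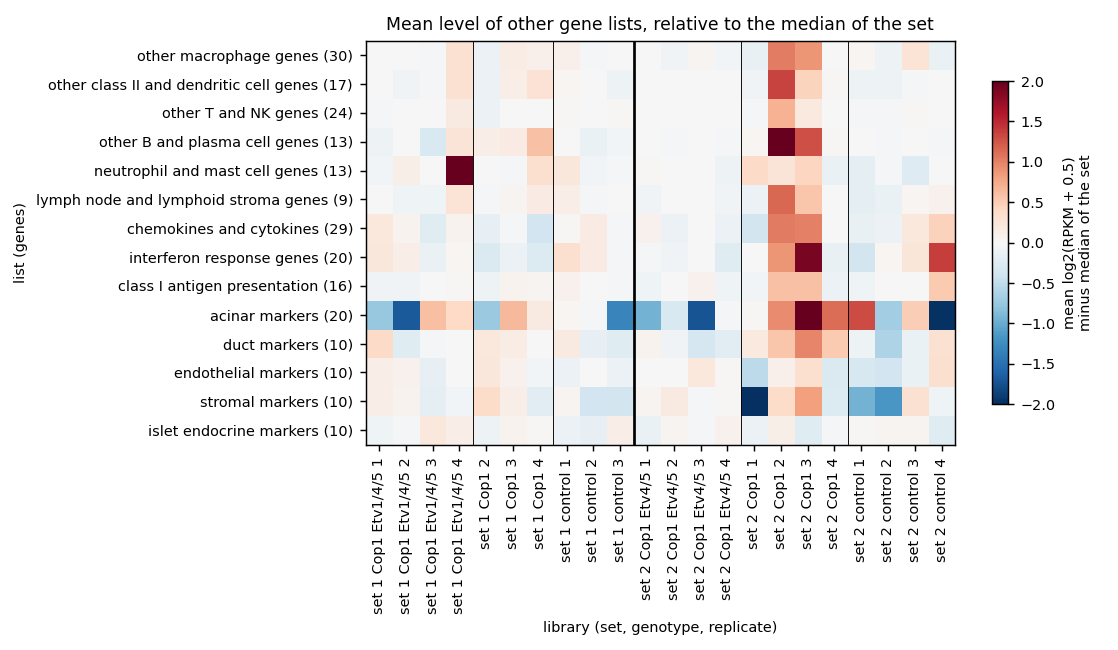
Mean log2(RPKM + 0.5) of each of 14 other gene lists (rows, number of genes in brackets) in each library (columns), minus the median of the set, on a colour scale from -2 (blue) to 2 (red). Set 2 Cop1 deletion replicate 2 is red for B and plasma cell and class II lists, replicate 3 for interferon and acinar lists, and set 1 Cop1 Etv1/4/5 deletion replicate 4 for neutrophil and mast cell genes.

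In set 1, companion lists changed in few genes. Of all tested genes, 8.33% passed for Cop1 deletion against control and 6.34% for Cop1 Etv1/4/5 deletion against Cop1 deletion. Irf1, a transcription factor of the interferon response, was 82.9, 88.9, 77.9 and 78.7 RPKM in Cop1 Etv1/4/5 deletion, 40.2, 48.7 and 47.2 in Cop1 deletion, and 111, 120 and 98.8 in control. The 3 groups did not overlap. It was the 1 of 20 interferon response genes that passed in either comparison: it fell by 1.27 in Cop1 deletion against control (SE 0.11, adjusted p = 1.1e-06) and was higher by 0.85 in Cop1 Etv1/4/5 deletion than in Cop1 deletion (SE 0.11, adjusted p = 6.5e-05), by limma. Csf1, the growth factor of macrophages, was 3.74, 4.52 and 3.87 RPKM in Cop1 deletion and 8.48, 7.96 and 7.03 in control, and fell by 0.87 (SE 0.25, adjusted p = 0.036). It was the 1 of 23 chemokines and cytokines that passed. Its receptor gene Csf1r had a log2 fold change of 0.39 in the same comparison (SE 0.28, adjusted p = 0.5).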

How the data were processed

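RNA was sequenced from cultured, handpicked mouse islets, per the labels' protocols. The deposited values are RPKM, computed by the authors, and their build, per the submitters' processing notes, was mm9. The aligner, counter, annotation and strand setting were not given in the sources used here. Of 24 columns, 22 were placed by the sample number in their titles and 2 could not be placed, which leaves 3 libraries in each of 2 groups. NCBI Gene numbers were matched to symbols of GRCm38.p6 (24998 of 28059 genes).

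A gene was tested if 4 or more libraries had 1 RPKM or more. Tests were made on log2(RPKM + 0.5) with limma 3.58.1 (R 4.3.3, trend and robust) in 1 fit of 6 group means, with 2-sided contrasts. P-values were adjusted by Benjamini-Hochberg across the whole tested table and called under 0.05. Shares of all tested genes that passed are at this adjusted threshold, and no such share is given for counts at an unadjusted p. Fold changes of low genes are understated on this scale. The test was tried on simulated data. The design text speaks of 5 biological replicates but does not tie libraries to mice, so p-values measure the spread between libraries. Members and lists were chosen with earlier results of these data known.

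Reads of 26 of the 32 markers were recovered from the steps between RPKM values (whole within 0.02 of a read) and serve as description only. Relative depth came from 3794 genes under 0.3 RPKM, and the total number of reads is unknown. The steps of Lyz2, Ctss, Cd74, H2-Aa, H2-Ab1 and H2-Eb1 could not be read. Every marker could be named. From other lists, up to 3 genes that passed with the smallest adjusted p could be named, or up to 2 with the highest mean RPKM where none passed, and genes outside this rule are marked as picked with values in view. Of the 32 markers, 21 had a promoter in the RefSeq table. Tables and figures used pandas 2.3.3, numpy 2.4.6 and matplotlib 3.10.9. Alternatives covered the pseudocount, filter, scaling, fit, library weights, a 2-fold minimum and libraries left out.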

Additional observations from a re-analysis of the deposited data

Results flagged for a closer look

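In 4 groups of 4 libraries, 32 markers give 128 sets of values, and 23 of them held a library far from the other 3, with a gap past Dixon's critical share of the group's range. Chance flags about 1 in 20. Set 1 Cop1 Etv1/4/5 deletion replicate 4 stood above its group for 7 markers: Cd53 at 1.9, Laptm5 at 7.92, Coro1a at 5.95, Tyrobp at 8.85, Fcer1g at 8.25, Csf1r at 4.83 and Itgam at 1.22 RPKM. Set 2 Cop1 deletion replicate 2 stood above its group for 6: H2-Eb1 at 50.1, Cd3e at 0.913, Cd3d at 1.22, Cd4 at 1.53, Cd8a at 0.16 and Nkg7 at 0.717 RPKM. Where replicates 2 and 3 were both high, as for Cd52 or Cd79b, the gap to the nearest library was too small for this criterion.

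In the other groups of set 2, Cop1 Etv4/5 deletion replicate 1 was highest for Cd52 at 2.58 and Csf1r at 2.33 RPKM. Control replicate 3 was highest for Lyz2 at 23.8 RPKM and control replicate 4 lowest for Coro1a at 1.05 RPKM. Control replicate 1 was highest for Cd79a at 0.288 RPKM. The remaining 5 rest on 1 read or on 1 library without any: Cd3e at 0.0151 RPKM in Cop1 Etv4/5 deletion replicate 4 and at 0 in control replicate 2, Cd3d at 0.0168 RPKM in Cop1 Etv4/5 deletion replicate 2 and 0.0151 in control replicate 1, and Nkg7 at 0.0248 RPKM in control replicate 1.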

How the results depend on the processing

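No paired analysis was possible because the labels give the libraries no replicate numbers. Between Cop1 deletion and control in set 2, the count of 4 markers became 1 with no filter, 0 with set 2 fitted alone, 0 with library weights and 0 with Xist-positive libraries alone. It became 0 without Cop1 deletion replicates 2 and 3, which stood out by the levels of these same markers. It was also 0 when control replicate 4 was left out with them, an alternative chosen after seeing the data. Leaving out 1 library gave 0 to 14: 14 without Cop1 deletion replicate 1, 12 without replicate 4, 0 without replicate 2, replicate 3 or control replicate 2, and 1 to 4 otherwise. The mean of both sets gave 0 to 3, the difference between sets 0 to 1, and Cop1 Etv4/5 deletion against Cop1 deletion 0 to 4 with 1 library left out. Library weights gave 1 marker (Cd14) in the last of these, and no filter gave 1 (Mrc1) for Cop1 Etv1/4/5 deletion against Cop1 deletion. For Cop1 deletion against control in set 1 and for both Etv deletions against control, the count was 0 under each alternative run.

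Log2 fold changes in set 2, Cop1 deletion over control, turned negative for Cd74 with library weights (-0.09), and for Ptprc (-0.01), Coro1a (-0.06), Cd74 (-0.08) and H2-Eb1 (-0.01) without Cop1 deletion replicates 2 and 3 and control replicate 4. The cause was not tested. With libraries scaled to equal totals, the median log2 fold change of all genes was 0.12 in place of -0.01 for Cop1 deletion over control in set 1, -0.13 in place of 0 for Cop1 Etv1/4/5 deletion over Cop1 deletion, and 0.2 in place of 0.01 for the difference between sets. The calls of Aif1, H2-Aa, H2-Ab1 and Cd52 had adjusted p up to 0.79, 0.93, 0.89 and 0.52 over their alternatives. RPKM gives no counting interval, and T cell and NK cell genes at 0 to 8 reads per library outside Cop1 deletion replicate 2 and Cd4 are too low to compare between genotypes.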
